A study of Mus musculus with 10 samples.

Results

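The phospholipase A2 genes Pla2g10, Pla2g4a, Pla2g6, Pla2g12a and Pla2g15 were followed in RNA-seq of pancreatic tumour epithelium. They are the 5 members chosen by gene symbol from 15624 genes in the deposited count table, and all 5 are listed there. Pla2g10 was chosen because earlier results of these data showed it far lower with tamoxifen, and the other 4 because they belong to the same enzyme family. The difference between tamoxifen and corn oil is therefore given for these genes as a description, with no test.

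The 6 tamoxifen samples and the 4 corn oil samples all came from established tumours of KPFSR mice, a genetically engineered mouse model of pancreatic ductal adenocarcinoma, and corn oil is the vehicle. Published descriptions of the model, not the labels, give it, among other alleles, mutant Trp53, a Flp recombinase driven from the Pdx1 promoter, floxed Slc7a11 and a tamoxifen-activated Cre expressed from Rosa26, so that both groups carry the same alleles and tamoxifen can act in every cell type of the animal. Tumour cells were taken from frozen sections by laser capture microdissection. The labels give no ages, doses or times and do not tie samples to animals, so each p-value rests on the variation among these libraries, which may be technical. No group had tamoxifen without the floxed gene, so an effect of the drug and an effect of the deletion cannot be told apart.

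Phospholipases A2 cut the fatty acid from the middle position of a membrane phospholipid and leave a lysophospholipid. When that fatty acid is arachidonate, cyclooxygenases and lipoxygenases turn it into prostaglandins and leukotrienes. Pla2g10 encodes a secreted enzyme with high activity on phosphatidylcholine that is made as an inactive precursor, is known in mice from the epithelium of the stomach and colon, and is activated by furin-like convertases. Pla2g12a encodes a widely expressed secreted member of low activity. Pla2g4a encodes the cytosolic, calcium-dependent enzyme that prefers arachidonate, Pla2g6 a calcium-independent enzyme that remodels membranes, and Pla2g15 a lysosomal enzyme that works at acid pH.

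The genes belong to different enzyme classes, and stretches of coding sequence around the active site are given. The stretches were located by the motif known for each class, so they illustrate the classes and do not test them. They come from GENCODE M21 transcripts on GRCm38. In the secreted genes the capitals mark the codons of the cysteine, histidine and aspartate motif that holds the catalytic histidine, which Pla2g12b lacks. In Pla2g12a and Pla2g12b the capitals start at the later of the paired cysteine codons, so the cysteine codon before it is in lowercase. In Pla2g4a, Pla2g6 and Pla2g15 they mark the codons of the motif that holds the catalytic serine.
Pla2g10: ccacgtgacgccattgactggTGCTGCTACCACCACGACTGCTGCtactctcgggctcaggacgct
Pla2g1b: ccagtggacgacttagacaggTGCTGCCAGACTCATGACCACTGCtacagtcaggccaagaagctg
Pla2g12a: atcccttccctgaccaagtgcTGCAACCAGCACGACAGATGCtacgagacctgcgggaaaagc
Pla2g12b: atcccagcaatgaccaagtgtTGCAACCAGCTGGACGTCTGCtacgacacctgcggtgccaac
Pla2g4a: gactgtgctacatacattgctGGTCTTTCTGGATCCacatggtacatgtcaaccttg
Pla2g6: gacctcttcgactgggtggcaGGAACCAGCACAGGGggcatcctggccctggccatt
Pla2g15: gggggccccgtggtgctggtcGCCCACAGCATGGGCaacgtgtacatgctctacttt
The Pla2g10 motif takes codons 70 to 77 of 151, and the stretch shown spans exons 2 and 3 within chr16:13725170-13727982 on the minus strand, which includes the intron between them. The Pla2g12a stretch lies within exon 3 at chr3:129890280-129890342 on the plus strand. Pla2g12b, the closest relative of Pla2g12a, has a leucine codon in place of the histidine codon and is known to encode a protein without enzyme activity. The Pla2g4a stretch spans exons 8 and 9 within chr1:149872745-149880030 on the minus strand, the Pla2g6 stretch lies in exon 11 at chr15:79299039-79299095 on the minus strand, and the Pla2g15 stretch in exon 5 at chr8:106161146-106161202 on the plus strand. The Pla2g1b stretch, from the pancreatic juice enzyme, spans exons 2 and 3 within chr5:115470922-115472038 and the Pla2g12b stretch lies in exon 3 at chr10:59416360-59416422, both on the plus strand.

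Total counts ran from 6899347 (replicate 6) to 19462115 in the tamoxifen libraries and from 16473902 to 36132316 in the corn oil libraries. Tamoxifen replicates 1 to 3 resembled each other most, with Pearson's r of 0.921 to 0.963 across genes against at most 0.878 for any other pair of libraries, so results are also given without them. The targeted gene Slc7a11 had a lowest, median and highest level of 5.90, 10.6 and 19.3 normalised CPM (reads scaled to a common library size, with TMM factors) with tamoxifen, against 38.9, 26.1, 40.1 and 23.2 in corn oil replicates 1 to 4. Reads over exons that the deletion leaves in place would still count toward it. Epithelial keratins were abundant in every library: Krt18 averaged 6473 ± 1706 normalised CPM with tamoxifen and 6545 ± 3222 with corn oil (SD, n = 6 and n = 4).

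Pla2g10 was nearly absent from the tamoxifen libraries. It had 0, 0, 5, 0, 12 and 0 reads in tamoxifen replicates 1 to 6, against 101, 1250, 2364 and 448 reads in corn oil replicates 1 to 4. That is 17 reads in 6 tamoxifen libraries and 4163 reads in 4 corn oil libraries, while all genes together gave 90485455 and 102872947 reads. On the scale corrected for depth, tamoxifen replicates 3 and 5 stood at 0.237 and 0.597 normalised CPM and the other 4 at 0, against 6.22, 38.1, 95.3 and 18.6 in corn oil replicates 1 to 4. The groups did not overlap, and even the highest tamoxifen library was well below the lowest corn oil library.

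**Figure D1:**
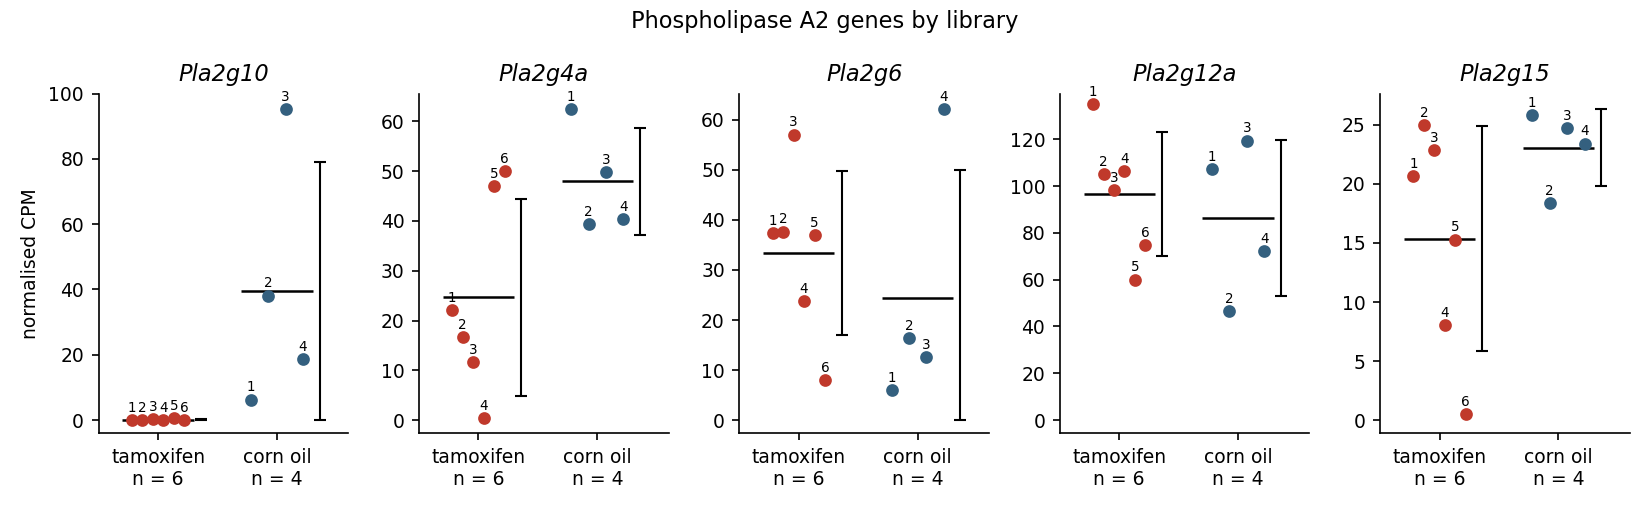
Normalised CPM of each member in every library, tamoxifen left of corn oil. Numbers beside points are replicates, horizontal lines are means and bars are SD, cut at 0 where the SD exceeds the mean; Pla2g10 is at or near 0 in all 6 tamoxifen libraries, and the other 4 genes overlap between groups.

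A count of 0 allows up to 3 reads, which corresponds to 0.261, 0.151, 0.188 and 0.490 normalised CPM in tamoxifen replicates 1, 2, 4 and 6, all below the lowest corn oil level of 6.22. These limits cover counting error only. The group means were 0.139 ± 0.243 normalised CPM with tamoxifen (SD, n = 6) and 39.6 ± 39.4 with corn oil (SD, n = 4), so the tamoxifen mean was 285 times lower, and the log2 fold change was -7.91 (SE 1.23). With tamoxifen replicates 1 to 3 left out the log2 fold change was -7.35, without corn oil replicate 3 it was -7.04, and without tamoxifen replicate 5, which held 12 of the 17 reads, it was -9.16. In bulk samples fewer cells that make a transcript and less of the transcript per cell cannot be told apart.

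The corn oil libraries differed among themselves. Their highest Pla2g10 level, in replicate 3, was 15.3 times the lowest, in replicate 1, a spread wider than the 10.3 times of Pla2g6, the 2.56 times of Pla2g12a, the 1.59 times of Pla2g4a and the 1.40 times of Pla2g15 in the same 4 libraries. Without corn oil replicate 3 the corn oil mean of Pla2g10 was 20.98 normalised CPM, against 39.6 with all 4.

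Pla2g10 occupies chr16:13715057-13730983 of GRCm38 (minus strand) in 4 exon blocks. An antisense RNA gene, Pla2g10os, overlaps its span on the plus strand but shares 0 exon bases with it in GENCODE M21. The 3 nearest listed genes on each side had much smaller log2 fold changes. Parn, Bfar and 3110001I22Rik had log2 fold changes of 0.59, 0.59 and -0.48, and Rrn3, Ntan1 and Pdxdc1 had 0.46, -0.30 and -0.24, with edgeR adjusted p of 0.638 to 0.898. In each of these 6 genes the groups overlapped. 3110001I22Rik lies inside the span of Bfar, and Ntan1 and Pdxdc1 overlap at their ends, so reads of these pairs may not be fully separated.

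**Figure D2:**
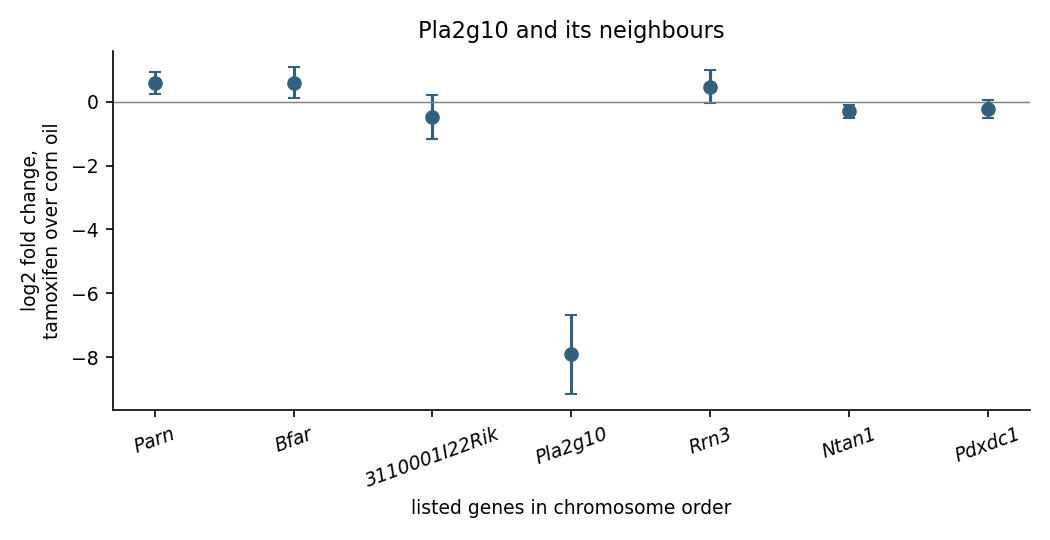
Log2 fold change of tamoxifen over corn oil for Pla2g10 and the 3 nearest listed genes on each side, in chromosome order, with bars of 1 SE. Pla2g10 stands at -7.91 and its neighbours lie between -0.48 and 0.59.

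Pla2g12a, the other secreted member, was abundant in every library. It had 135, 105, 98.1, 106, 60.0 and 74.8 normalised CPM in tamoxifen replicates 1 to 6, against 107, 46.6, 119 and 72.3 in corn oil replicates 1 to 4. The ranges overlapped almost fully. Means were 96.6 ± 26.3 with tamoxifen (SD, n = 6) and 86.4 ± 33.2 with corn oil (SD, n = 4), and the log2 fold change was 0.16 (SE 0.31). Its position is chr3:129878606-129895825 (plus strand).

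Pla2g4a, the arachidonate-selective enzyme, was lower on average with tamoxifen but split the tamoxifen libraries. It had 22.04, 16.6, 11.7, 0.377, 47.04 and 49.999 normalised CPM in tamoxifen replicates 1 to 6, against 62.5, 39.4, 49.8 and 40.3 in corn oil replicates 1 to 4. Tamoxifen replicates 5 and 6 were within the corn oil range, replicates 1 to 3 were below it, and replicate 4 had only 6 reads of the gene in a library of 16551859 counts. Means were 24.6 ± 19.9 with tamoxifen (SD, n = 6) and 48.0 ± 10.8 with corn oil (SD, n = 4), and the log2 fold change was -0.96 (SE 0.76). It was -0.56 without tamoxifen replicates 1 to 3. Its position is chr1:149829618-149961290 (minus strand).

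Pla2g6, the calcium-independent enzyme, was the member with the most uneven corn oil levels after Pla2g10. It had 37.4, 37.6, 57.04, 23.8, 36.9 and 8.01 normalised CPM in tamoxifen replicates 1 to 6, against 6.03, 16.4, 12.6 and 62.2 in corn oil replicates 1 to 4. A single library, corn oil replicate 4, was above all 6 tamoxifen libraries, while the other 3 corn oil libraries were below 5 of the 6 tamoxifen libraries. Means were 33.4 ± 16.4 with tamoxifen (SD, n = 6) and 24.3 ± 25.6 with corn oil (SD, n = 4). The log2 fold change was 0.46 (SE 0.64), 1.52 without corn oil replicate 4 and -0.09 without tamoxifen replicates 1 to 3, so its direction depends on which libraries are kept. Its position is chr15:79286228-79328390 (minus strand).

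Pla2g15, the lysosomal enzyme, was steady in the corn oil libraries. It had 20.6, 24.97, 22.8, 8.04, 15.3 and 0.490 normalised CPM in tamoxifen replicates 1 to 6, against 25.8, 18.4, 24.7 and 23.4 in corn oil replicates 1 to 4. Tamoxifen replicates 1 to 3 were within the corn oil range and replicates 4 to 6 below it, with 3 reads in replicate 6, the shallowest library. Means were 15.4 ± 9.50 with tamoxifen (SD, n = 6) and 23.1 ± 3.28 with corn oil (SD, n = 4). The log2 fold change was -0.58 (SE 0.69), -0.33 without tamoxifen replicate 6 and -1.53 without tamoxifen replicates 1 to 3. Its position is chr8:106150399-106164715 (plus strand).

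Of the 5 members, 1 (Pla2g10) was lower in tamoxifen with no overlap of the groups and 0 were higher with none. Over all 13006 tested genes, 1.95% were lower with no overlap. Since Pla2g10 was chosen on this contrast, nothing is read from that count. All 5 members passed the filter on low counts, Pla2g10 through its corn oil libraries.

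Levels of different genes can be compared only per length, so normalised CPM was divided by the kilobases of exon of each gene. With tamoxifen the order was Pla2g12a at 26.2 ± 7.15 CPM per kb, Pla2g6 at 6.16 ± 3.02, Pla2g15 at 5.10 ± 3.15, Pla2g4a at 3.85 ± 3.11 and Pla2g10 at 0.0924 ± 0.162 (SD, n = 6). Pla2g12a was above every other member in each of the 6 libraries. The neighbours Pla2g6, Pla2g15 and Pla2g4a overlapped and are not separated by their spread. With corn oil the order was Pla2g10 at 26.3 ± 26.2 CPM per kb, Pla2g12a at 23.5 ± 9.02, Pla2g15 at 7.66 ± 1.09, Pla2g4a at 7.51 ± 1.68 and Pla2g6 at 4.47 ± 4.71 (SD, n = 4). Pla2g10 was above Pla2g12a in 2 of 4 corn oil libraries, so these do not differ beyond their spread, and neither do the 3 lowest.

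The share of Pla2g10 in the summed level per kb of the 5 genes was 0% to 1.10% in the tamoxifen libraries, against 7.84%, 47.6%, 55.5% and 21.5% in corn oil replicates 1 to 4. Pla2g12a took 63.4% ± 11.8 of the sum with tamoxifen (SD, n = 6) and 35.4% ± 13.9 with corn oil (SD, n = 4). The sum itself was 41.4 ± 8.98 CPM per kb with tamoxifen and 69.4 ± 29.9 with corn oil (SD, n = 6 and n = 4), and the groups overlapped. With the longest transcript in place of all exons as the length, Pla2g12a stood above Pla2g10 with corn oil, at 28.9 and 27.8 CPM per kb, and Pla2g4a passed Pla2g15 in both groups.

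**Figure D3:**
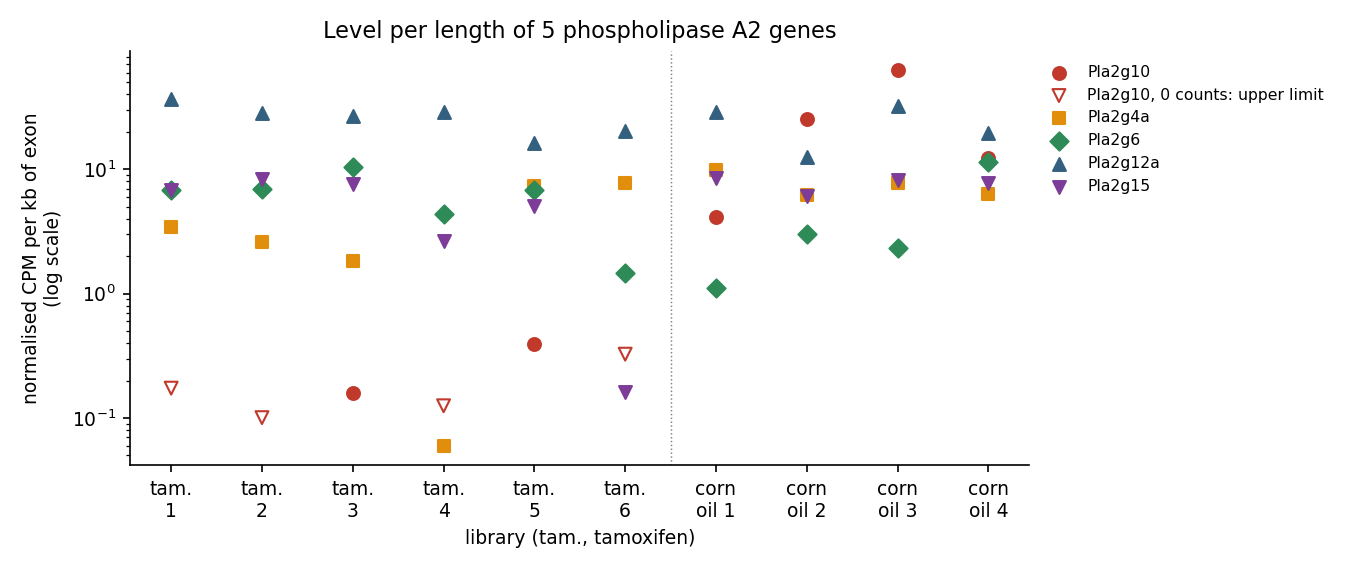
Normalised CPM per kb of exon of the 5 members in every library, on a log axis, with tamoxifen libraries on the left of the dotted line and corn oil libraries on the right. Open triangles give the upper limit that 0 reads allow; Pla2g12a leads in all 6 tamoxifen libraries, while Pla2g10 leads in corn oil replicates 2 and 3.

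No pair of members was closely related in level. Across the 10 libraries Pearson's r of log2 CPM between pairs ran from -0.31 (Pla2g10 and Pla2g12a) to 0.49 (Pla2g10 and Pla2g4a), and after each group's mean was subtracted it ran from -0.32 to 0.64 (Pla2g6 and Pla2g15). These values are descriptions over 10 libraries that share differences of depth between the groups.

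The genes whose log2 CPM followed that of Pla2g10 most closely over the 10 libraries (only genes averaging 3 or more on that scale were compared) were 1110054M08Rik (r = 0.946), Mtx2 (0.940), Tmem126a (0.939), Tff1 (0.938) and Cmtm8 (0.935). In all 5 the groups did not overlap, so these r values largely restate the contrast on which Pla2g10 was chosen and are no separate evidence. In this and the next measure, 4 tamoxifen libraries had 0 reads of Pla2g10. Tff1 encodes a trefoil factor that mucous cells of the stomach secrete, and is 1 of the 4 genes that fell over all genes tested, with 241 ± 230 normalised CPM with tamoxifen (SD, n = 6), 5583 ± 3022 with corn oil (SD, n = 4) and an edgeR adjusted p of 0.0362. After group means were subtracted, so that only differences within groups counted, the closest were Ubr4 (r = 0.908), Hist3h2a (0.846), Xrn2 (0.828), Crls1 (0.811) and En1 (0.808). The 2 sets had no gene in common. With a prior count of 0.5 in place of 2, 3 of the first 5 genes and 1 of the second 5 were still among the closest. Neither set was therefore stable, the second least.

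Markers of gastric mucous cells were lower with tamoxifen, in the same contrast on which Pla2g10 was chosen. All 11 marker genes were listed and lower on average with tamoxifen. Their summed level was 1853 to 6221 normalised CPM with tamoxifen, against 18028 to 28963 with corn oil. Corn oil replicate 3 was highest for both the sum and Pla2g10. The lowest corn oil sum was in replicate 2 and the lowest Pla2g10 level in replicate 1. The highest tamoxifen sum was in replicate 6, the shallowest library, where 0 reads of Pla2g10 allow up to 0.490 normalised CPM. Tamoxifen replicate 5, with a sum of 5096, held the highest Pla2g10 level of its group, 0.597. With 4 tamoxifen libraries at 0 reads, their order in Pla2g10 cannot be read. In edgeR 1 of the 11, Tff1, fell at an FDR of 0.05, where 0.0308% of all tested genes fell, and 7 of the 11 (63.6%) were lower at an unadjusted p under 0.05, where 9.7% of all tested genes passed in either direction. The median log2 fold change was -2.55, and the median over all tested genes was -0.01. Gkn3 and Ctse had log2 fold changes of -6.18 and -1.17 with edgeR adjusted p of 0.0969 and 0.350. Their part in the low level of Pla2g10 was not tested.

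The summed markers of epithelium and of other cells overlapped between groups. The sum of 7 epithelial markers was 13805 to 24380 normalised CPM with tamoxifen and 13725 to 29609 with corn oil, and 6 of the 7 were lower on average. The sum of 10 fibroblast markers was 164 to 1070 with tamoxifen and 132 to 498 with corn oil, with Col3a1 at 128 ± 85.2 and 75.97 ± 60.9 (SD, n = 6 and n = 4), and all 9 of them that were tested were higher on average, with 0 past the FDR in edgeR and 3 (33.3%) at an unadjusted p under 0.05, where 9.7% of all tested genes passed. The sum of 9 macrophage markers was 811 to 2066 with tamoxifen and 892 to 1338 with corn oil, and 6 of the 9 were lower on average. Cd14 alone took a large part of that sum and was higher without overlap of the groups, at 699 to 936 with tamoxifen and 249 to 584 with corn oil (log2 fold change 0.95, edgeR adjusted p 0.227). Acinar cells are the known source of Pla2g1b in the pancreas, and of 6 listed acinar markers Cela2a and Pnlip had 3 reads or fewer in every library. The sum of those 6, nearly all of it Cela1, was 33.1 to 86.9 with tamoxifen, against 149, 17.2, 204 and 107 in corn oil replicates 1 to 4. Corn oil replicate 3 was highest for this sum and for Pla2g1b. The sum of 5 listed neutrophil markers was 4.49 to 103 with tamoxifen and 12.7 to 163 with corn oil, that of 6 endothelial markers was at most 15.1 and 22.1, and that of 5 listed lymphocyte markers at most 2.01 and 0.322. The part of these cells in the values of the members was not tested.

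The rest of the pathway was read from 11 lists of phospholipase, eicosanoid and lysophospholipid genes chosen by function. Of 132 genes, 111 were listed in the table and 97 were tested. None of the 97 passed an FDR of 0.05 in edgeR, where 0.0384% of all tested genes did, or 0.0308% counting lower genes alone. At an unadjusted p under 0.05 there were 16 (16.5%), 2 higher and 14 lower, against 9.7% of all tested genes. DESeq2 called 5, all lower: Lpcat4, Ptgr1, Liph, Mgst3 and Pla2g12b, where 2.47% of all genes with an adjusted p were called in either direction and 1.14% were lower. The median log2 fold change of the 97 was 0.03, and 48 of them (49.5%) were lower, against 50.7% of all tested genes. Of the lists whose members are not counted below, the patatin-like lipases had 4 of 5 tested genes higher on average, the platelet-activating factor hydrolases and lysophospholipases 6 of 12, the acyltransferases and acyl-CoA synthetases 9 of 15, prostaglandin transport and breakdown 3 of 5, and the lysophosphatidic acid and endocannabinoid enzymes 5 of 13, and none of these passed the FDR in edgeR.

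**Figure D4:**
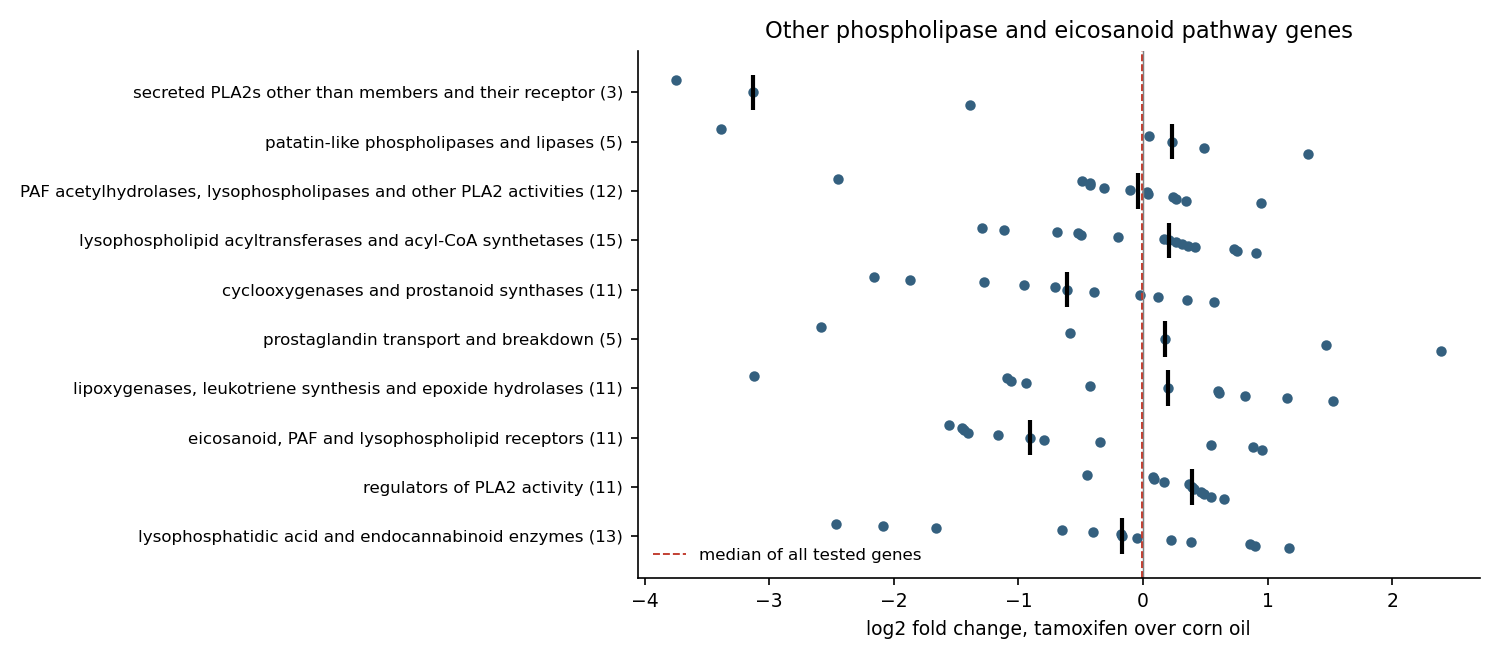
Log2 fold change of tamoxifen over corn oil for each tested pathway gene, by list, with the number of tested genes in brackets. Points are genes, black bars are list medians and the dashed line is the median of all tested genes; the list medians range from -3.13 to 0.39.

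All 3 tested genes among the other secreted phospholipases were lower on average with tamoxifen, and 0 passed the test in edgeR. Pla2g1b, the digestive enzyme of pancreatic juice, had 3.83, 0.757, 0.237, 0, 3.58 and 0 normalised CPM in tamoxifen replicates 1 to 6, against 3.39, 11.1, 54.4 and 7.28 in corn oil replicates 1 to 4, a log2 fold change of -3.75 with an SE of 1.31 (adjusted p 0.345 in edgeR). The groups overlapped, and corn oil replicate 3 was the highest for both Pla2g1b and Pla2g10. Pla2g12b, known in mice for its part in lipoprotein secretion, had 1.31, 0.858, 0.948, 2.70, 2.04 and 0 with tamoxifen, against 22.4, 4.60, 0.967 and 18.5 with corn oil, a log2 fold change of -3.13 with an SE of 1.05 (adjusted p 0.327 in edgeR). Pla2g2d, known from dendritic cells and macrophages of mouse lymph nodes, had 0 to 16.3 normalised CPM with tamoxifen and 1.85 to 14.7 with corn oil. Pla2g2e, the receptor gene Pla2r1 and the cytosolic relatives Pla2g4b and Pla2g4c did not pass the filter on low counts before the edgeR fit. Of these Pla2g4b had 0, 1, 0, 0, 1 and 0 reads in tamoxifen replicates 1 to 6, against 37, 5, 77 and 2 reads in corn oil replicates 1 to 4, with no overlap of the groups in normalised CPM, and DESeq2, run without that filter, gave it an adjusted p of 0.0587.

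Pla2g16, which encodes a membrane-anchored phospholipase of fat and other tissues, was 1.57, 2.12, 1.56, 6.35, 24.4 and 27.5 normalised CPM in tamoxifen replicates 1 to 6, against 83.9, 16.8, 50.9 and 78.0 in corn oil replicates 1 to 4. The groups overlapped through corn oil replicate 2, and the log2 fold change of -2.45 (SE 0.84) had an edgeR adjusted p of 0.340. Pla2g7, the plasma enzyme that breaks down platelet-activating factor and is known from macrophages, separated tamoxifen replicates 1 to 3 from the rest, with 7.23, 6.41, 7.11, 91.9, 225 and 127 in tamoxifen replicates 1 to 6, against 74.4, 140, 69.6 and 131 in corn oil replicates 1 to 4. It was chosen for naming after its values were seen. Its log2 fold change was -0.42 (edgeR adjusted p 0.939).

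Of the enzymes that hydrolyse or replace these lipids, Pafah2, an intracellular hydrolase of oxidised phospholipids, was higher without overlap of the groups, at a lowest, median and highest level of 32.8, 39.9 and 68.8 normalised CPM with tamoxifen, against 26.4, 26.5, 24.8 and 14.1 in corn oil replicates 1 to 4 (log2 fold change 0.94, edgeR adjusted p 0.344). Lpcat4, which puts a fatty acid back on a lysophospholipid, was lower without overlap, at 53.6, 73.8 and 106 with tamoxifen, against 165, 216, 168 and 205 with corn oil (log2 fold change -1.29, edgeR adjusted p 0.0921). Prdx6, an antioxidant enzyme with phospholipase A2 activity, was at 682 ± 102 with tamoxifen (SD, n = 6) and 959 ± 204 with corn oil (SD, n = 4), with an edgeR adjusted p of 0.4997. Among patatin-like lipases, Pnpla2, the main triglyceride lipase, and Pnpla8 had log2 fold changes of 0.23 and 0.49 with edgeR adjusted p of 0.910 and 0.727.

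**Figure D5:**
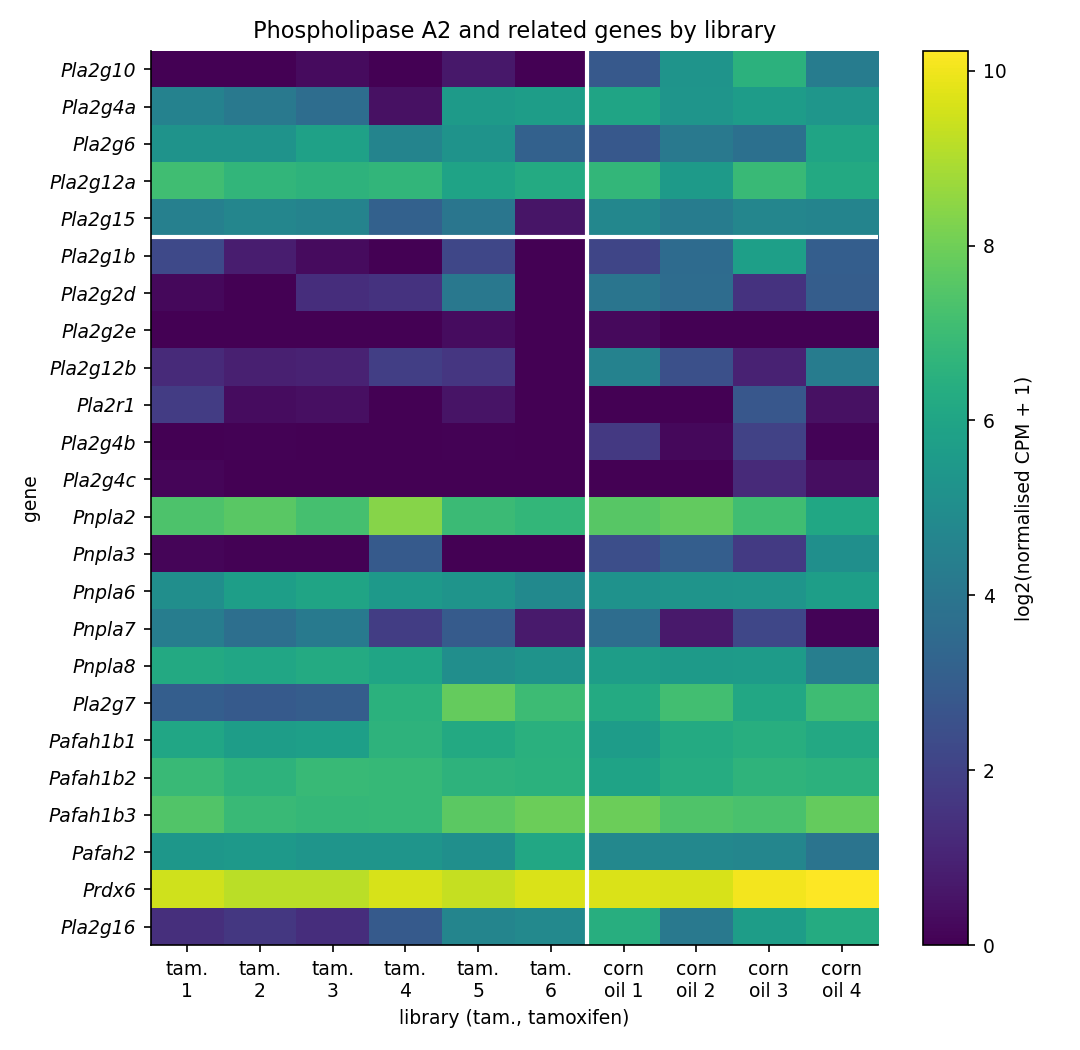
Level of the 5 members (above the white line) and of other phospholipase A2, patatin-like and platelet-activating factor hydrolase genes in every library, as log2 of normalised CPM + 1, with tamoxifen libraries left of corn oil libraries. Pla2g10 is dark in all tamoxifen libraries, and Pla2g7 is lower in tamoxifen replicates 1 to 3 than in the other 7 libraries.

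Of the enzymes downstream of arachidonate, Ptgs1 and Ptges were present in every library, but others were near absent from some. Ptgs2, the inducible cyclooxygenase, was at 0.126 to 8.70 normalised CPM with tamoxifen and 0.152 to 12.5 with corn oil. The lipoxygenase gene Alox5 had 0 reads in tamoxifen replicates 1, 3 and 6 and corn oil replicate 4. Alox15 had 0 reads in tamoxifen replicates 1 to 4 and 6 and 92 in replicate 5, against 28, 1, 75 and 542 with corn oil. These 3 genes were chosen for naming after their values were seen. Ptgs1, the constitutive cyclooxygenase, was at 47.2 ± 14.3 normalised CPM with tamoxifen (SD, n = 6) and 91.3 ± 33.3 with corn oil (SD, n = 4), a log2 fold change of -0.95 with an SE of 0.32 (adjusted p 0.327 in edgeR). Ptges, the inducible prostaglandin E synthase, was at 248 ± 108 with tamoxifen (SD, n = 6) and 167 ± 82.4 with corn oil (SD, n = 4), a difference within the spread (edgeR adjusted p 0.725). Of 11 tested synthase genes 8 were lower and 0 passed the test, with a median log2 fold change of -0.61 that was 0.02 without tamoxifen replicates 1 to 3.

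Ptgr1, a reductase that inactivates prostaglandins and leukotriene B4, was lower without overlap of the groups. It had 13.4, 21.1, 15.0, 108, 96.2 and 15.0 normalised CPM in tamoxifen replicates 1 to 6, against 167, 397, 171 and 338 in corn oil replicates 1 to 4 (log2 fold change -2.58, SE 0.64, edgeR adjusted p 0.187). The prostaglandin importer Slco2a1 had a log2 fold change of 2.40 (edgeR adjusted p 0.421) and Hpgd, which oxidises prostaglandin E, one of 1.47 (edgeR adjusted p 0.646). Hpgd had 25.4, 29.9, 27.5, 6.09, 4.62 and 0.980 normalised CPM in tamoxifen replicates 1 to 6, against 10.5, 4.45, 4.43 and 3.41 in corn oil replicates 1 to 4, so that replicates 1 to 3 alone were above the corn oil range. The median log2 fold change of the 5 tested transport and breakdown genes was 0.18, and -0.53 without those replicates. Of the leukotriene list, Mgst3, a microsomal glutathione transferase, was at 368 ± 129 with tamoxifen (SD, n = 6) and 783 ± 191 with corn oil (SD, n = 4), with an edgeR adjusted p of 0.227. Of its 11 tested genes 5 were lower and 0 passed the test.

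Among 11 tested receptors 8 were lower and 0 passed the test in edgeR, with a median log2 fold change of -0.91. Ptger4, a prostaglandin E receptor, was at 14.9 ± 9.69 normalised CPM with tamoxifen (SD, n = 6) and 40.3 ± 11.03 with corn oil (SD, n = 4), with a log2 fold change of -1.43 (edgeR adjusted p 0.371). Lpar6, a lysophosphatidic acid receptor, had one of -1.16 (edgeR adjusted p 0.649). Liph, a secreted phospholipase A1 that makes lysophosphatidic acid, was lower without overlap of the groups, at 6.87, 18.2 and 56.8 at the lowest, median and highest with tamoxifen, against 210, 62.0, 174 and 63.4 in corn oil replicates 1 to 4 (log2 fold change -2.46, SE 0.57, edgeR adjusted p 0.154).

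Of 11 tested genes that act on phospholipase A2 proteins, 10 were higher on average and 0 passed the test, with a median log2 fold change of 0.39. Furin, which encodes a convertase able to cleave the Pla2g10 precursor, was at 144 ± 31.6 normalised CPM with tamoxifen (SD, n = 6) and 98.65 ± 30.1 with corn oil (SD, n = 4), with an edgeR adjusted p of 0.561. Anxa1, an annexin known to restrain cytosolic phospholipase A2, was at 1984 ± 645 with tamoxifen (SD, n = 6) and 1435 ± 292 with corn oil (SD, n = 4), with an edgeR adjusted p of 0.651. Of 97 pathway genes, 4 (Lpcat4, Ptgr1 and Liph lower, Pafah2 higher) had groups that did not overlap, and the 3 lower ones are 3.09% of the 97, against 1.95% of all tested genes. In either direction 3.23% of all tested genes had groups that did not overlap.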

How the data were processed

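Libraries came from SMART-seq cDNA and the Nextera XT kit, per the labels' protocols, which do not mark strand. For the 10 libraries the authors deposited unnormalised counts of reads for each gene symbol. The genome build was mm10 and the tools were featureCounts 1.5.0-p3, STAR 2.5.2b and bcl2fastq 2.17, per the submitters' processing notes. The annotation, strand setting and treatment of multimapping reads are not stated in the labels. Counts were tested with edgeR 4.0.16 in R 4.3.3: filterByExpr left 13006 genes, TMM factors scaled them, and a quasi-likelihood F test of tamoxifen against corn oil without covariates was adjusted by Benjamini-Hochberg over all tested genes at an FDR of 0.05. The SE is the absolute log2 fold change divided by the square root of F. Log2 CPM used a prior count of 2. DESeq2 1.42.0 on unfiltered counts, RLE factors, no filter and left-out libraries were alternatives. The fit was tested on simulated data. GENCODE M21 (GRCm38, which mm10 names) gave positions, lengths and coding stretches and held 14649 of 15624 table symbols. Older symbols were matched through RefSeq synonyms. Total counts ran from 6899347 to 36132316 per library, and intervals and limits cover counting error only. Figures were drawn with matplotlib 3.10.9.

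The members, the gene lists and the alternatives were chosen with earlier results of these data known. The members were always named. Of each pathway list, genes past the FDR, otherwise up to 4 with the lowest p (mean log2 CPM not below 0), and the 2 with the highest mean share of library counts could be named, of which a part is given. The genes closest to Pla2g10, its neighbours and markers with the highest mean share were named by rank.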

Additional observations from a re-analysis of the deposited data

Results flagged for a closer look

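Over 10 phospholipase A2 genes, each checked in both groups for a library far from the others (20 checks), 2 values stood apart, where chance gives about 1 in 20. Pla2g2d was highest in tamoxifen replicate 5, at 16.3 normalised CPM, with the other 5 tamoxifen libraries at 0 to 1.82. Pla2g1b was highest in corn oil replicate 3, at 54.4 normalised CPM, with the other 3 corn oil libraries at 3.39 to 11.1. This library also held the highest Pla2g10 level, 95.3, and the highest sum of acinar markers, 204.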

How the results depend on the processing

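The log2 fold change of Pla2g10 stayed between -9.16 and -7.04 over 16 alternatives. In all of them the log2 fold changes of the 5 members moved by less than the SD of log2 CPM between libraries of a group. That limit is wide, at 1.15 for Pla2g6 and 1.64 for Pla2g15. Leaving libraries out can hardly exceed it, so no stability is read from it. With single libraries left out they ran from -9.16 to -7.04 for Pla2g10, -1.29 to -0.71 for Pla2g4a, 0.14 to 1.52 for Pla2g6, -0.04 to 0.36 for Pla2g12a and -0.73 to -0.33 for Pla2g15. The sign of Pla2g6 and Pla2g12a was not settled, since their lowest values were -0.09 and -0.10. The number of all genes past the FDR was 5, with 343 in DESeq2, 77 without tamoxifen replicates 4 and 6, 0 without tamoxifen replicates 1 to 3 or with these summed into 1 sample, and 0 to 11 with single libraries left out; 0 arose without corn oil replicate 1 or 3 or tamoxifen replicate 1, 2 or 3. In edgeR these counts of 0 stand beside 602 (replicates 1 to 3 out), 709 (summed) and 894 to 1252 (single libraries out) genes at an unadjusted p under 0.05. The number of pathway genes past the FDR was 0 (16 at an unadjusted p under 0.05 in edgeR), with 5 in DESeq2, 3 without tamoxifen replicates 4 and 6, and 0 to 2 with single libraries left out, the 2 without tamoxifen replicate 4. The cause was not tested. RLE factors and no filter changed no call of the pathway lists. No paired analysis was possible because the labels give no replicate numbers, and those used here only name the samples. Shallow libraries limit low genes most: in tamoxifen replicate 6 a count of 0 allows up to 0.490 normalised CPM.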
